A study of Homo sapiens with 10 samples.

Results

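CD70 is 1 of the 12373 genes with a row in a single-cell RNA data set of Kuramochi, a human ovarian cancer line, taken through an escalation of the PARP inhibitor olaparib. It was selected on its summed UMI counts, which differed along the escalation and between cells, so its own levels are given as a description, with no test. The cells with at least 1 CD70 UMI after each cell was thinned to 1000 UMIs, called CD70-positive below, numbered 15 at 10 µM olaparib, 22 at 20, 104 at 40, 79 at 80, 80 at 160 and 159 at 320. A UMI is a molecular identifier that marks 1 captured RNA molecule.

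CD70 encodes a trimeric membrane ligand of the tumour necrosis factor (TNF) superfamily. Its receptor is CD27, carried mainly by T and B lymphocytes, which signals through TRAF adaptors to NF-kappaB. In healthy tissue CD70 is mostly limited to activated lymphocytes and dendritic cells, but many carcinomas carry it, ovarian carcinomas among them, and it has been pursued as a target for antibodies and engineered T cells.

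Per the labels, all 10 populations are the epithelial, BRCA2-mutant line Kuramochi, and 9 of them were grown in olaparib until confluency. BRCA2 acts in the repair of double-strand breaks, and cells without it usually depend on PARP enzymes. Untreated cells are called C, and cells at 1, 2.5, 5, 10, 20, 40, 80, 160 and 320 µM olaparib are called T1, T2.5, T5, T10, T20, T40, T80, T160 and T320. The populations are 1 serial escalation of 1 line with 1 inDrop library each, so any difference between populations is also a difference between libraries.

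The 18209 cells held 51277639 UMIs, with 1976069 to 9343704 per library and a median of 1145 to 2974.5 per cell. Genes found in fewer than about 1% of the cells of a library stand at 0 for that library, which makes a listed 0 no proof of absence. In both T160 and T320, 20 genes lay at less than 0.1 of their lowest level in C to T80, among them EEF1A1, PPIA and RPL7, and 13 of the 20 share sequence with other genes. CD70 shares none of its last 500 transcript bases with a gene that does not overlap it on the chromosome. Overlapping genes and the rest of the transcript were not checked. These 20 genes took 2.12% to 5.83% of the UMIs in C to T80, and leaving them out moved CD70 to 52.6 CPM in T40 and 172 CPM in T320. Of the 18209 cells, 1984 carry a barcode also seen in another library, as do 123 of the 1126 cells with any CD70 UMI. The labelled epithelial identity was checked on 14 markers, of which 12 have a row and summed to 488 CPM in T320 and 2026 CPM in C. The desmosome gene DSP was at 54.5 CPM in T320 and 273 CPM in C, and the keratin KRT8 at 219 CPM in T320 and 1027 CPM in C, with 44.7% of its 3' sequence shared and hence uncertain. EPCAM was listed at 0 in both, and CDH1 was not analysed here.

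CD70 was listed at 0 in the 4 populations up to 5 µM and was detected in all 6 populations from 10 µM upward. In CPM, the UMIs of a gene scaled to 1000000 UMIs of its library, T10 had 8.30, T20 16.0, T40 50.9, T80 36.7, T160 45.4 and T320 172. These levels rest on 35, 68, 257, 276, 346 and 486 CD70 UMIs, so the T10 value is the least precise of the 6. The level was higher at each dose from 10 to 40 µM, stayed between 36.7 and 50.9 CPM up to 160 µM, and was highest at 320 µM.

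Set against the dose before it, the CD70 level was 1.93 times as high in T20 (exact Poisson 95% interval 1.26 to 2.98) and 3.18 times as high in T40 (2.43 to 4.22). T80 was at 0.721 times the T40 level (0.606 to 0.857), and T160 at 1.24 times the T80 level (1.05 to 1.46). The longest step was the last one, where T320 had 3.79 times the T160 level (3.30 to 4.36). These intervals cover counting error only, since no dose has a second library. In order of level, T40 and T160 are neighbours whose ratio of 1.12 has an interval that spans equality (0.951 to 1.32), while every other pair of neighbours differed by more than counting error.

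Because C is listed at 0, no fold against it is given. A gene listed at 0 could still have been present in up to 17 cells of C (0.921%) and in up to 6 cells of T5 (0.826%). On the scale of log2(CPM + 10), with C taken as 0, T10 differed from C by 0.87, T20 by 1.38, T40 by 2.61, T80 by 2.22, T160 by 2.47 and T320 by 4.19. For comparison, 712 of the 4617 genes with at least 50 CPM in T320 or C were at least 2-fold higher in T320 on this scale (15.4%), and 537 were at least 2-fold lower (11.6%). Since CD70 was chosen for this contrast, nothing is read from its place among them.

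**Figure D1:**
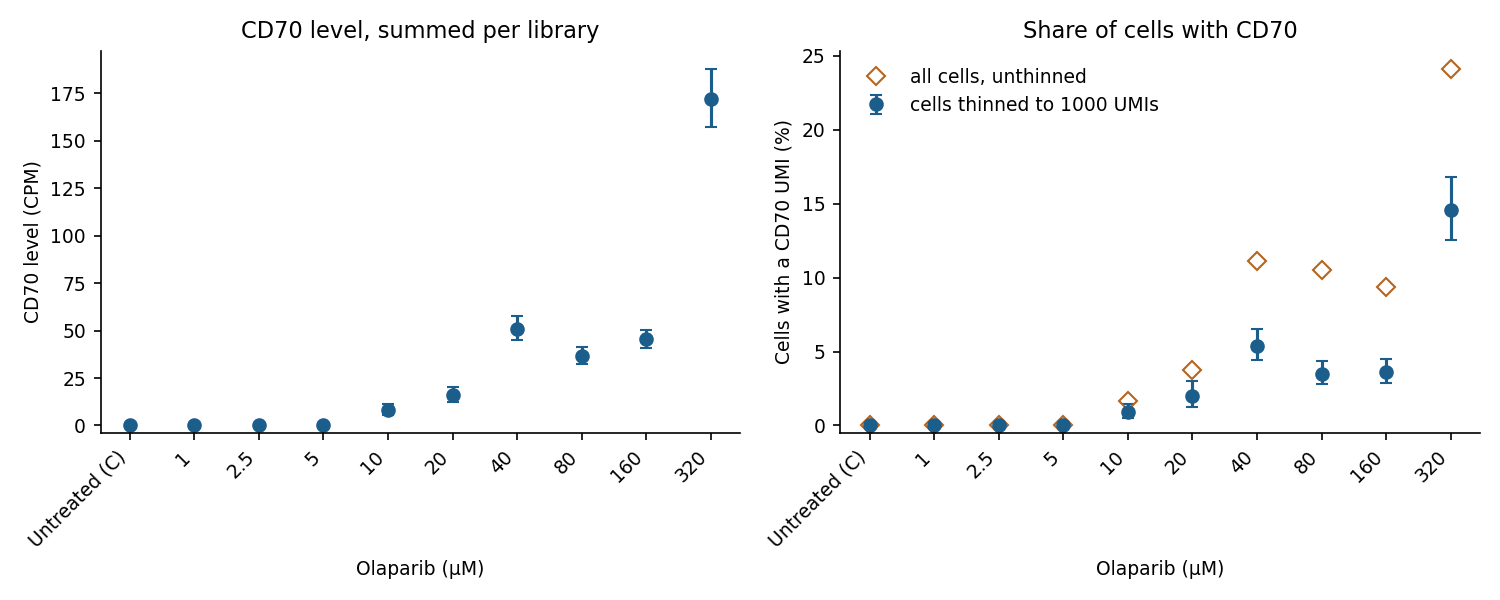
CD70 along the escalation. The left panel gives the CD70 level in CPM for each olaparib dose in µM, with exact Poisson 95% intervals, and the right panel gives the percent of cells with a CD70 UMI after thinning to 1000 UMIs (filled, exact binomial 95% intervals) and in all cells without thinning (open). Points at 0 are listed zeros and carry no interval, and T320 stands highest in both panels, at 172 CPM and 14.6% of thinned cells.

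The share of CD70-positive cells at equal depth followed the same order at its ends. At 1000 UMIs, T10 had 0.885% (15 of 1695 cells), T20 2.0% (22 of 1102), T40 5.40% (104 of 1926), T80 3.51% (79 of 2252), T160 3.61% (80 of 2215) and T320 14.6% (159 of 1091). The exact binomial 95% interval in T320, 12.5% to 16.8%, lay above that of T40, 4.43% to 6.51%. Without thinning the shares were 1.66%, 3.77%, 11.1%, 10.5%, 9.34% and 24.1% from T10 to T320. Cells under 1000 UMIs were left out of the thinned shares, between 10 cells in T80 and 430 cells in T160.

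Most CD70-positive cells at this depth held a single CD70 molecule. Of the 80 positive T160 cells, 72 held 1 CD70 UMI and 8 held 2 or more. Of the 159 positive T320 cells, 129 held 1 CD70 UMI and 30 held 2 or more. Before thinning, the most CD70 UMIs in any cell was 7, in T320, where 102 cells held 2 or more and 39 held 3 or more. The UMIs were gathered in fewer cells than an even spread over the UMIs of the library would give. In T320, 322 cells held CD70 against 390.5 under an even spread, and in T160 the numbers were 247 and 318.1. In T40, 231 cells held CD70 against 237.7 under an even spread, so the gathering was smaller there. At about 1 UMI per cell, more cells with the transcript and more transcript per cell cannot be told apart. A negative cell is a cell in which no CD70 molecule was sampled, and every library is of 1 line, so no other cell type gives a background share.

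The table of cells deposited by the authors covers 8240 of the cells, each with a state named C, S1, S2, S3, S4 or S5. Over the listed cells CD70 was listed at 0 in C and S1, and was at 3.60 CPM in S2, 9.22 in S3, 29.5 in S4 and 51.7 in S5. The states follow the doses, so the levels were set side by side within each library. In T10 the level was 4.87 CPM in S2, 9.40 in S3 and 17.7 in S4. In T20 it was 4.77 CPM in S2, 7.90 in S3 and 56.5 in S4. The S3 levels of T10 and T20 rest on 3 and 4 CD70 UMIs, and the ratio of S3 to S2 spanned equality in both, at 1.93 times (exact Poisson 95% interval 0.322 to 8.45) and 1.66 times (0.355 to 6.51). At 1000 UMIs, 0 of 129 S3 cells of T10 were CD70-positive (exact binomial 95% interval up to 2.82%), against 3 of 613 S2 cells. The ratio of S4 to S2 lay above equality in both libraries, at 3.63 times (1.15 to 11.8) in T10 and 11.9 times (4.48 to 34.7) in T20.

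Within a library, S4 cells had more CD70 than S3 cells in T20 (7.16 times, exact Poisson 95% interval 2.25 to 29.9) and in T40 (3.68 times, 1.72 to 9.42). In T40 the levels were 46.6 CPM in S4 and 12.7 CPM in S3. In T10 and T80 the intervals of the same ratio spanned equality, at 1.88 times (0.451 to 11.0) and 4.46 times (0.766 to 179). CD70 also differed within 1 state: S5 cells had 107 CPM in T320 and 36.1 CPM in T160, a ratio of 2.96 (2.32 to 3.76). S4 cells of T10 had 17.7 CPM, those of T20 56.5, those of T40 46.6 and those of T80 18.0. The states were assigned on these same cells, so no test is given.

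**Figure D2:**
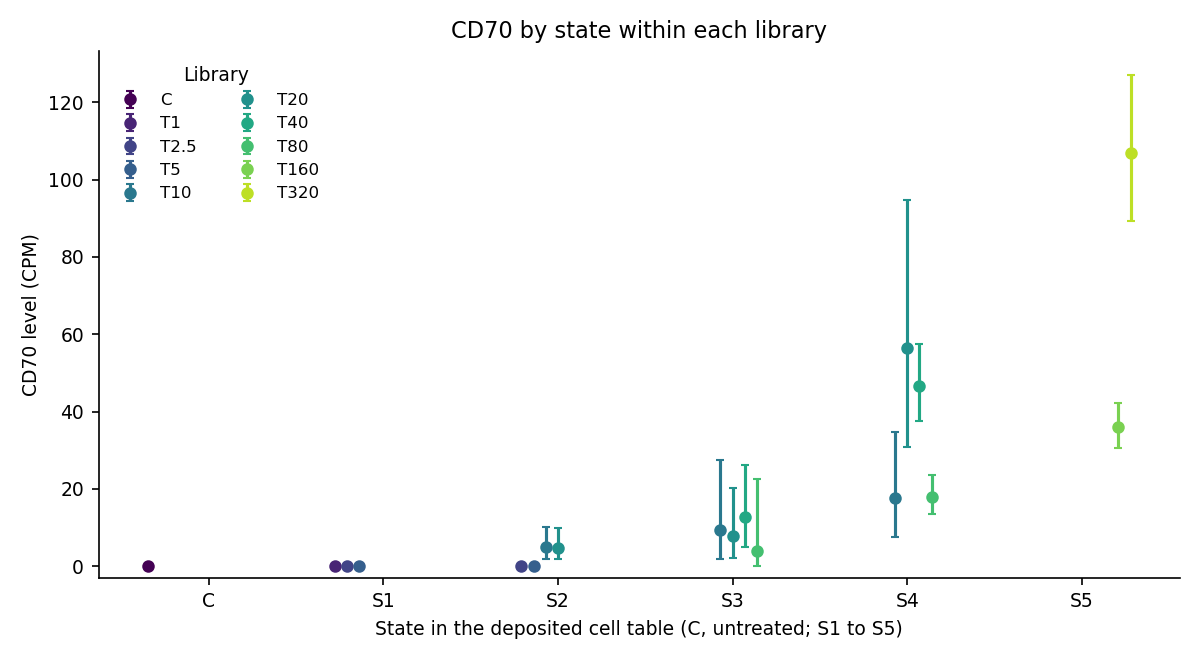
CD70 level by state within each library. Each point is a library and state with at least 50 listed cells, the vertical axis gives CPM with exact Poisson 95% intervals, and points at 0 are listed zeros. S4 lies above S3 in all 4 libraries that hold both, and S5 reaches 107 CPM in T320.

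The cells that the deposited table leaves out held more CD70 than those it lists. In T320, CD70 was at 220.5 CPM in unlisted cells and 106.9 CPM in listed cells, a ratio of 2.06 (exact Poisson 95% interval 1.68 to 2.54). In T80 the levels were 51.3 CPM in unlisted cells and 16.9 CPM in listed cells, a ratio of 3.04 (2.25 to 4.17). The levels in unlisted and listed cells were 8.47 and 8.15 CPM in T10, 21.2 and 11.3 in T20, 62.2 and 39.0 in T40, and 57.3 and 36.1 in T160. All 6 libraries with CD70 had the higher level in unlisted cells, and the T10 values were nearly equal.

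Over these 6 libraries the mean difference of log2(CPM + 10), unlisted minus listed, was 0.64 ± 0.40 (SD, n = 6 libraries). The comparison was chosen after its values were seen and carries no test. The name of the deposited table refers to G1, and the unlisted cells carried 2831 to 5665 CPM of a list of 17 G2/M genes, against 350 to 608 CPM in listed cells.

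The second comparison split the cells by those G2/M genes after thinning. Cells with 3 or more G2/M UMIs had 225 CPM of CD70 in T320, against 104 CPM in cells with none. The corresponding levels in T80 were 54.6 CPM with 3 or more and 21.2 CPM with none. The level was higher in the cells with 3 or more in 5 of 6 libraries, with T10 the exception at 6.04 against 9.10 CPM, and the mean log2 difference was 0.56 ± 0.51 (SD, n = 6 libraries). CD70 was detected in both kinds of cell in all 6 libraries.

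**Figure D3:**
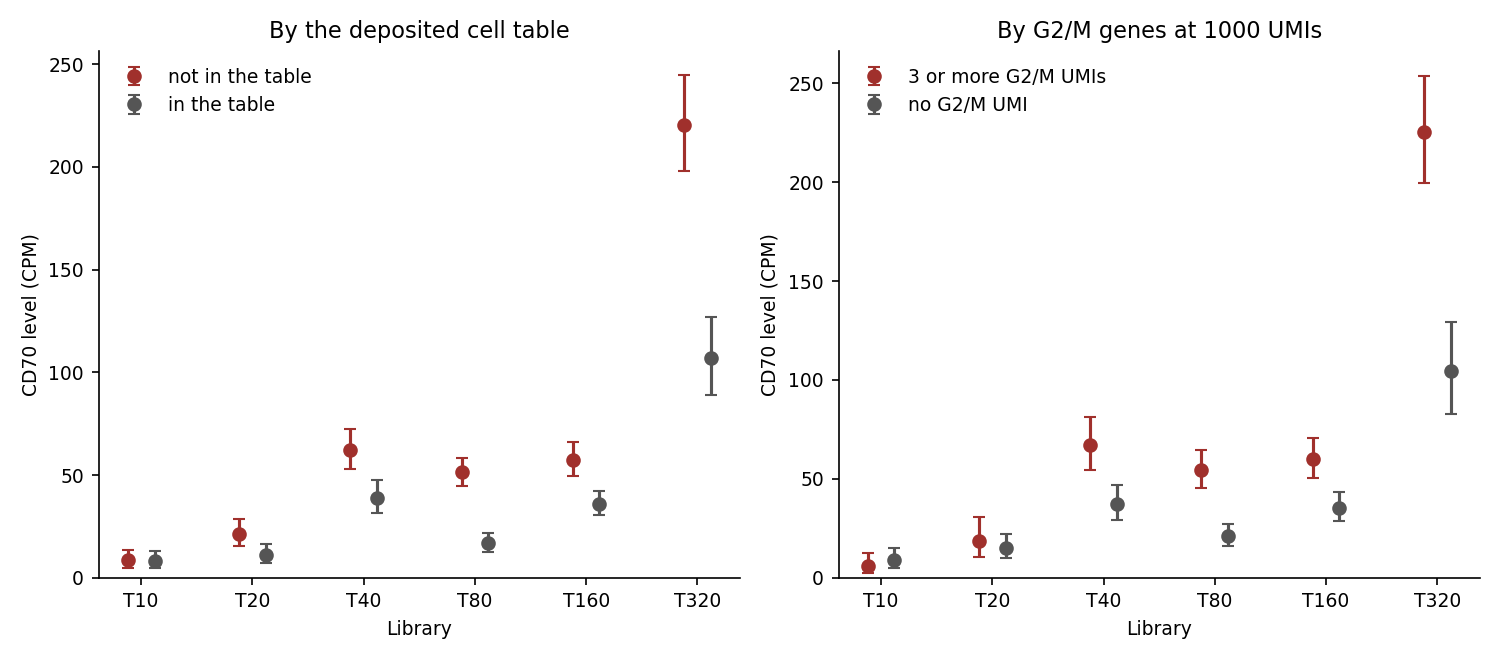
CD70 level in cells not in the deposited table and in it (left), and in cells with 3 or more G2/M UMIs and with none at 1000 UMIs (right), for the 6 libraries with CD70. Points are CPM with exact Poisson 95% intervals; in T320 they stand at 220.5 and 106.9 CPM on the left.

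Within T320, the 159 CD70-positive and 932 CD70-negative cells differed most in genes that were lower in the positive cells. Cells are not replicates, so this contrast within 1 library is a description with counting error only. Among the 894 genes with at least 200 CPM in either kind of cell, the median difference of log2(CPM + 10), positive minus negative, was 0.06. The 8 lowest genes differed by at least 1.24 on this scale, against 0.66 or more for the 8 highest.

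CYP1B1, a cytochrome P450 that oxidises oestrogens and polycyclic hydrocarbons, was at 132 CPM in positive cells and 695.5 CPM in negative T320 cells, a ratio of 0.190 (exact Poisson 95% interval 0.141 to 0.252). CDKN2A, which encodes the cell-cycle inhibitor p16, was at 51.9 CPM in positive cells and 278 CPM in negative cells (ratio 0.187, 0.113 to 0.291). IGF2, an imprinted growth factor, was at 109 CPM in positive cells and 473 CPM in negative cells. The ratios of these 3 genes were the lowest of the 8.

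The other genes at the low end were BOC, a hedgehog co-receptor, at 158 CPM in positive and 580 CPM in negative cells; ABLIM1, an actin-binding protein, at 140 and 443 CPM; and PEG10, a gene derived from a retrotransposon, at 93.5 and 266 CPM. HEG1, a membrane mucin, had 454 CPM in positive and 1147 CPM in negative cells. AKR1B1, the aldose reductase, had 88.3 CPM in positive and 221 CPM in negative cells, and is uncertain because 11.5% of its 3' sequence is shared. Its difference of -1.24 is the last inside the 8, and SLIT2 follows just outside at -1.17. In the libraries tested below, PEG10 was not lower in positive cells of T80 (213 CPM, against 178 CPM in negative cells). BOC was not lower in positive cells of T40 (384.5 CPM, against 381 CPM).

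At the high end stood MT2A, a metal-binding metallothionein, at 2334 CPM in positive and 1222 CPM in negative T320 cells (ratio 1.91, 1.77 to 2.06), with 17.2% of its 3' sequence shared. UBE2C, the ubiquitin-conjugating enzyme of the anaphase-promoting complex, was at 820 CPM in positive cells and 472 CPM in negative cells (1.74, 1.53 to 1.97). HMGB2, a chromatin protein, was at 563 and 351 CPM. The mitochondrial enzymes ETFB and ECI1, the microtubule-binding protein MAP4 and the LIM-domain protein FHL2 were 1.62 to 1.75 times as high in positive cells. ETFB, ECI1, MAP4 and FHL2 did not pass in the libraries tested below (edgeR adjusted p from 0.145 to 0.946). UBE2C (0.0717) and HMGB2 (0.0914) did not pass there either, while MT2A did (0.0392). ECI1 was at 0.797 times the negative level in positive cells of T40 and 0.706 times in T80.

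PARP1, which encodes the main target of olaparib, was the last inside the 8 highest. It had 301 CPM in positive and 186.5 CPM in negative T320 cells, a ratio of 1.61 (1.30 to 1.99), with a log2 difference of 0.66. PLAU followed just outside at 0.65. In the 3 libraries tested below, PARP1 gave a log2 fold change of 0.18 (edgeR adjusted p = 0.831), so the T320 difference has no counterpart past the threshold there.

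Beside these differences, the positive T320 cells had 5.72% mitochondrial UMIs, against 7.33% in negative cells, and 4498 CPM of the 17 G2/M genes, against 3307 CPM. Of the positive cells 27.0% were listed in the deposited table, against 45.9% of the negative cells. Median depth was 2262 UMIs in positive cells and 2163.5 UMIs in negative cells. Within the listed T320 cells, all of state S5, the log2 difference was -2.23 for CYP1B1, -2.46 for CDKN2A and -1.57 for BOC, close to those over all cells, from 43 positive and 428 negative cells. For UBE2C it was -0.04 and for FHL2 0.01 there, so no higher level in positive cells was measured there. The part of the mitochondrial share in these differences was not tested.

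**Figure D4:**
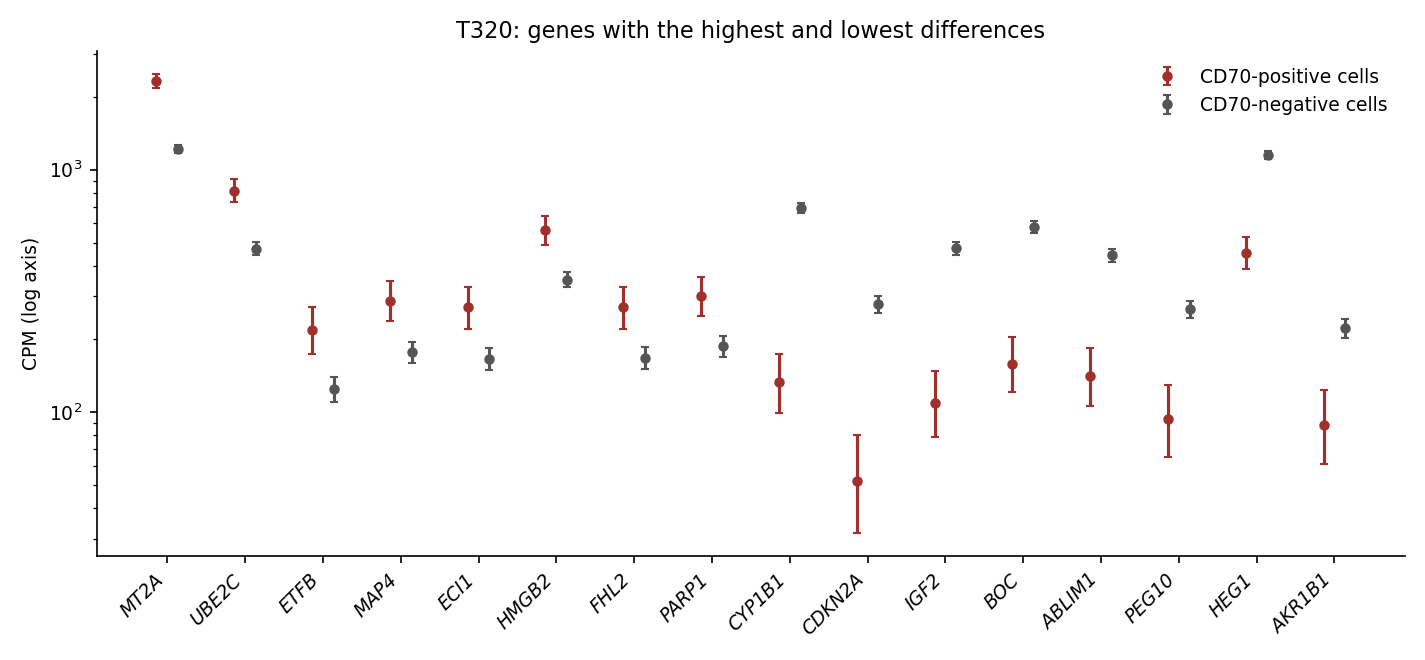
Levels in CD70-positive and CD70-negative T320 cells of the 8 genes with the highest and the 8 with the lowest differences. Points are CPM on a log axis with exact Poisson 95% intervals that cover counting error only; CDKN2A stands at 51.9 CPM in positive cells and 278 CPM in negative cells.

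The same contrast was tested in the other libraries with at least 30 positive cells, T40, T80 and T160, with edgeR's quasi-likelihood test on counts summed by library and CD70 status and with library as a block. Of 10433 genes tested, 8 were higher in positive cells (0.0767%) and 9 were lower (0.0863%) at an adjusted p under 0.05, and 941 had an unadjusted p under 0.05. All 17 had the same sign in each of the 3 libraries, but the calls were made on these libraries, so this is no support. In T320, which took no part in the fit, 16 of the 17 had that sign too, with PAG1 the exception. Of all 10433 genes, 5064 lay above 0 in T320, but how many kept their sign from the fit was not counted. The count of 16 is therefore a description. Among the 16, the T320 ratio spanned equality for PMAIP1 (1.11, exact Poisson interval 0.604 to 1.90), KDM5B (0.775, 0.535 to 1.095) and CRYBG1 (1.83, 0.599 to 4.77). The intervals of the others among the 16 did not.

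CYP1B1, the lowest by difference in T320, had the smallest p among the lower genes in the fit, though not the largest fall. It had 90.7 CPM in positive and 256.1 CPM in negative cells of T40, 152 and 304 CPM in T80, and 196 and 1191 CPM in T160. Its log2 fold change was -1.80 (edgeR adjusted p = 0.000449), but a second random draw of the thinning gave -0.88 and no call (adjusted p = 0.0815). CDKN2A had 50.8 CPM in positive and 103 CPM in negative cells of T40, 68.6 and 90.0 CPM in T80, and 54.2 and 575.5 CPM in T160 (log2 fold change -1.87, adjusted p = 0.0210). Without T160, CDKN2A gave -0.68 (edgeR adjusted p = 0.335), so its call rests on that library. For both genes T160 showed the widest gap and T80 the narrowest.

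IGF2 had 2158 CPM in positive and 3830 CPM in negative cells of T40, 1379 and 1970 CPM in T80, and 494 and 2440 CPM in T160 (log2 fold change -1.17, edgeR adjusted p = 0.0210). IGF2 was not called in the second draw (-0.88, adjusted p = 0.0834). Without T160 it was smaller, at -0.67, but still passed. SLIT2, a secreted guidance cue, fell by 1.51 on the log2 scale (adjusted p = 0.0159), and PLXNA2, a semaphorin co-receptor, fell by 2.69 (adjusted p = 0.0210). LRRN2, a leucine-rich repeat membrane protein, had 13.5 CPM in positive and 250 CPM in negative cells of T160 (adjusted p = 0.00247). In T80 it had 11.4 CPM in positive and 14.2 CPM in negative cells (ratio 0.805, exact Poisson 95% interval 0.163 to 2.42), and in T40 no UMI in positive and 13.4 CPM in negative cells. Like the call of CDKN2A, that of LRRN2 was lost without T160 (-1.28, adjusted p = 0.752). The others that were lower were LMO3, a LIM-only transcriptional cofactor, KDM5B, a histone H3 lysine demethylase, and REC8, a meiotic cohesin.

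Among the higher genes, CD44, the hyaluronan receptor, had 653 CPM in positive and 389 CPM in negative cells of T40, 259 and 217 CPM in T80, and 637 and 188 CPM in T160. Its log2 fold change was 0.95 (edgeR adjusted p = 0.0337), and T320 had 561 CPM in positive and 375 CPM in negative cells. MT2A had 2144 CPM in positive and 1506 CPM in negative cells of T40, 1315 and 1017 CPM in T80, and 2137 and 662 CPM in T160 (0.85, adjusted p = 0.0392). MT2A is thus the 1 gene both among the 8 highest in T320 and past the threshold on that side, and CYP1B1, CDKN2A and IGF2 are the 3 on the low side.

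AURKB, the kinase of the chromosomal passenger complex, rose by 0.90 on the log2 scale (edgeR adjusted p = 0.0210), PCLAF, a PCNA-binding protein, by 0.74, and PMAIP1, the BH3-only protein NOXA, by 1.19 (adjusted p = 0.0272 for both). PAG1, an adaptor that recruits CSK, rose by 1.38, PHLDA2, an imprinted pleckstrin-homology protein, by 1.22, and CRYBG1, a gene of the beta/gamma-crystallin family, by 1.93. In T320, PAG1 had 54.5 CPM in positive and 67.1 CPM in negative cells, and PMAIP1 had 41.5 and 37.6 CPM. PCLAF and CRYBG1 share 10.2% and 14.9% of their 3' sequence with other genes and are uncertain.

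These calls depend on which libraries and cells enter. Without T80 no gene passed in either direction (680 had an unadjusted p under 0.05), without T40 22 were higher and 47 lower, and without T160 20 were higher and 17 lower. Of the 17 genes themselves, 9 passed without T160, and LRRN2, LMO3, PLXNA2, REC8, CDKN2A, CRYBG1, PAG1 and PHLDA2 did not (edgeR adjusted p from 0.112 to 0.752). CYP1B1 was at -1.20, SLIT2 at -0.88, CD44 at 0.57 and MT2A at 0.45 without T160, and these 4 passed. Each fit with 1 library left out rests on only 2 libraries, so its adjusted p-values and calls are uncertain. The second draw of the thinning gave 3 higher and 8 lower, and 7 of the 17 passed in it. CD44 (0.71, adjusted p = 0.0893) and AURKB (0.72, adjusted p = 0.0667) were among the 10 that did not, with CYP1B1, IGF2, KDM5B, PMAIP1, PCLAF, CRYBG1, PAG1 and PHLDA2. In that draw PMAIP1 gave only 0.20 (edgeR adjusted p = 0.932) and PAG1 0.69 (0.558). With T320 added, 68 were higher and 104 lower, and 16 of the 17 passed. With DESeq2's test 4 were higher and 2 lower. The positive cells had more G2/M transcript in each of the 3 libraries, 3303, 2910 and 4691 CPM in T40, T80 and T160, against 2117, 2430 and 2697 CPM in negative cells. They had a lower mitochondrial share, 7.29%, 7.38% and 6.17%, against 8.05%, 8.23% and 9.51% in negative cells. Their median depth in T40, T80 and T160 was 2277, 2906 and 3966.5 UMIs, against 2268, 2983 and 3228 UMIs in negative cells. The parts of the mitochondrial share and of depth in the calls were not tested.

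**Figure D5:**
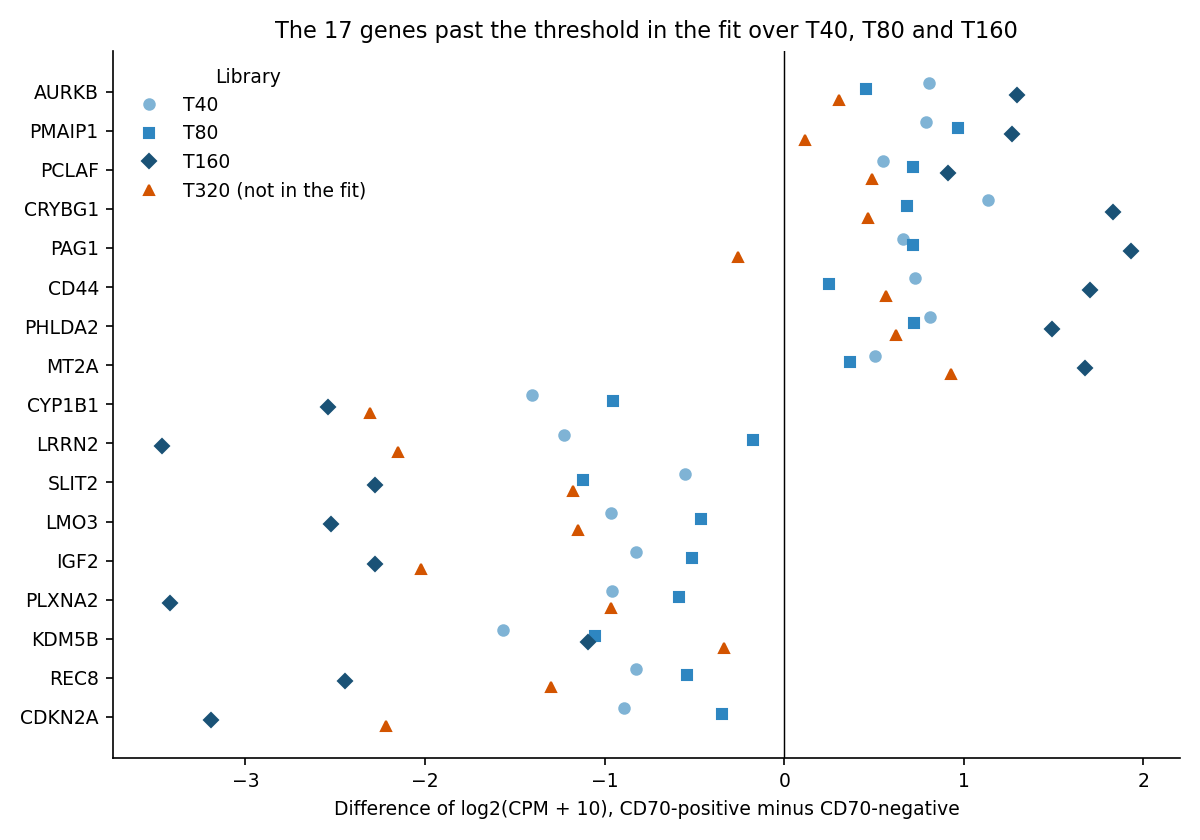
Difference of log2(CPM + 10), CD70-positive minus CD70-negative cells, for the 17 genes past the threshold over T40, T80 and T160, by library. T320 (triangles) took no part in the fit; PAG1 is the gene whose T320 point, at -0.26, lies across 0 from the others.

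The contrast can also be read from the other gene of a pair, by whether it was detected at 1000 UMIs; this restates the contrast that named these genes. In T320, 5.51% of the 218 cells with CDKN2A were CD70-positive (12 cells; exact binomial 95% interval 2.88% to 9.42%), against 16.8% of the 873 cells without it (147 cells; 14.4% to 19.5%). In T160 the shares were 0.587% of 852 cells with CDKN2A and 5.50% of 1363 cells without. In T40 they were 4.21% and 5.53%, and in T80 3.14% and 3.54%, where the exact binomial 95% intervals overlapped. With CYP1B1 the shares were 6.90% with and 17.4% without in T320. For CD44 the order was the other way round, with 19.3% of cells with CD44 and 12.8% of cells without it CD70-positive in T320, and 9.97% and 2.53% in T160. The CD44 shares were 8.32% and 4.43% in T40, and 4.37% and 3.32% in T80. Their exact binomial 95% intervals overlapped in T80 and in T320 (15.0% to 24.3% and 10.5% to 15.3%).

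Of the 17 G2/M genes, all 17 had a fold change above 0 in the fit, with a median of 0.65, and 1 passed the threshold (AURKB), while the median over all genes tested was -0.01 and 5126 of 10433 lay above 0. In T320 all 17 were again above 0, with a median of 0.31, while 5064 of all 10433 genes lay above 0 there, with a median of 0.0. In the listed cells, whose G2/M level is low, AURKB gave -0.11 (edgeR adjusted p = 0.996). In those cells the block was library and state together, T40 cells of S4 and T160 cells of S5, with 30 and 34 positive cells. Of 7692 genes tested there, 8 were higher and 11 lower. The fit rests on only 2 such blocks, so its adjusted p-values are uncertain. There CDKN2A gave -3.33 (adjusted p = 1.71e-06), CYP1B1 -1.98 (adjusted p = 4.5e-05) and CD44 1.21 (adjusted p = 0.0233), and LRRN2, SLIT2, IGF2 and PLXNA2 passed as well. In the unlisted cells alone no gene passed (519 had an unadjusted p under 0.05).

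Of the 14 mesenchymal genes tested, 9 lay above 0 and CD44 alone passed the threshold, with VIM, an intermediate filament, at 0.51 (edgeR adjusted p = 0.158). In T320 only 5 of these 14 lay above 0, with a median of -0.0009. The 4 serous ovarian lineage genes tested lay below 0 in the fit with a median of -1.16, and none passed. SOX17 gave -2.50 (edgeR adjusted p = 0.110). Of the 13 immediate early and AP-1 genes, 1 lay above 0, and none passed. None of the 13 CD27 adaptor and NF-kappaB genes tested passed, and 8 of them lay above 0. With 0.0767% and 0.0863% of all genes called, lists of this size would hold about no called gene, so nothing is read from these counts.

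CD70 (ENSG00000125726.10) lies on the minus strand of chromosome 19 at 6583183 to 6604103 in GRCh38, by the GENCODE 29 annotation. The processed pseudogene RPL7P50 lies in 1 of its introns on the plus strand and was not analysed here. Of 34 genes annotated within 250 kb, 13 have a row, and 11 of these were tested for a trend along the escalation with edgeR (slope per dose step over the 10 libraries). Across the genome 914 of 11387 genes rose (8.03%) and 1024 fell (8.99%); with library-size scaling in place of TMM, 1255 rose and 755 fell. Of the 11 neighbours none rose and 1 fell: C3, a complement component, which was listed at 0 from T5 upward and had at most 11.2 CPM before (adjusted p = 0.0203).

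The nearest gene with a row is TNFSF9, 47255 bases away, which encodes 4-1BBL, another TNF superfamily ligand. It was at 3.75 CPM in C, listed at 0 from T1 to T10, and then at 5.17 CPM (T20), 23.2 (T40), 7.18 (T80), 13.0 (T160) and 28.0 (T320). Its slope did not pass the threshold (edgeR adjusted p = 0.149), although like CD70 it was highest in T320. The slope passed upward with limma-voom (adjusted p = 0.0152) and without C (edgeR, 0.0243). It did not pass with library-size scaling (edgeR, 0.118), with DESeq2 (0.2865) or within C to T80 (edgeR, 0.415). TNFSF14, which encodes LIGHT, lies 57150 bases away on the other side and was not analysed here. Of the neighbours further off, GPR108 and TRIP10 had 46.0 and 93.1 CPM in T320, against 17.2 and 47.4 CPM in C, with adjusted p = 0.0818 and 0.0867.

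Of 17 TNF superfamily ligands other than CD70, 6 have a row and 2 could be tested, and neither passed with edgeR over all 10 libraries. Of the 12 TNF receptors tested, 2 rose and 1 fell. CD40, the receptor of CD40 ligand, was at 33.9 CPM in C and 56.9 in T10, 87.2 in T40 and 92.0 in T320 (adjusted p = 0.0161). NGFR, the p75 neurotrophin receptor, was at 2.36 CPM in C, 33.0 in T10 and 48.1 in T320 (adjusted p = 0.00691). TNFRSF19 fell (adjusted p = 0.0401), from a level of at most 13.1 CPM. The receptor CD27 was not analysed here. Of the 14 genes of its adaptors and the NF-kappaB pathway that were tested, none rose and 2 fell, against 8.03% and 8.99% of all genes. The 2 were NFKB1 (adjusted p = 0.0202) and RELB (adjusted p = 0.0201), both NF-kappaB subunits. NFKB1 was at 32.6 CPM in T320 and 102 CPM in C. SIVA1, which binds the tail of CD27, was at 106.9 CPM in T320 and 58.6 CPM in C (adjusted p = 0.114). It passed upward with library-size scaling (edgeR adjusted p = 0.0432) and with DESeq2 (0.0488). It did not pass with limma-voom (0.102), within C to T80 (edgeR, 0.0869), without C (0.144) or without T320 (0.156).

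More members of a list of other ligands and enzymes that act on T or natural killer cells fell than rose. Of 13 tested genes of this T-cell co-signalling list, 1 rose and 7 fell, against 8.03% and 8.99% of all genes. CD47, which binds SIRP-alpha on macrophages, was at 74.7 CPM in T320 and 253 CPM in C (edgeR adjusted p = 0.00237). CD276, which encodes B7-H3, was at 24.8 CPM in T320 and 48.8 CPM in C (adjusted p = 0.00330). PVR, a ligand of TIGIT and CD226, was at 23.0 CPM in T320 and 62.8 CPM in C (adjusted p = 0.00786).

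NECTIN2, VSIR, BTN3A2 and BTN3A3 also fell, the butyrophilins with 31.9% and 41.1% of their 3' sequence shared and hence uncertain. NT5E, the ectoenzyme CD73, was the member that rose, with 166 CPM in T320 and 41.9 CPM in C (adjusted p = 0.0172). CD274, which encodes PD-L1, was listed at 0 in 8 of the 10 libraries and at most at 8.10 CPM. The trend test takes each library as an independent sample, although they come from 1 serial escalation. Within C to T80, where the drop of the 20 genes above plays no part, CD47 (adjusted p = 0.00497), CD276 (0.0244), PVR (0.0303), NT5E (0.0261), CD40 (0.0405) and NGFR (0.0255) passed as well. NECTIN2, BTN3A2, NFKB1, RELB, TNFRSF19 and C3 did not pass there, with adjusted p from 0.0666 to 0.221, and VSIR missed the threshold with library-size scaling (0.0512).

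Of the 16 genes tested from 2 pathways known to control CD70 in other cells, 4 fell and none rose with TMM scaling, against 8.99% and 8.03% of all genes. Both lists mix members of opposing action, so these counts give no direction for either pathway. DNA methylation represses CD70 in T cells, and of the 8 DNA methylation enzymes DNMT3A (edgeR adjusted p = 0.0351) and TET3 (adjusted p = 0.0278) fell. DNMT1, the maintenance methyltransferase, was at 143 CPM in T320 and 107 CPM in C (adjusted p = 0.845). Hypoxia-inducible factor drives CD70 in renal carcinoma, and of the 8 genes of that pathway ARNT (adjusted p = 0.0397) and EGLN1 (adjusted p = 0.0362) fell. None of these 4 passed within C to T80 (adjusted p from 0.0516 to 0.243), and with library-size scaling DNMT3A (0.0663), ARNT (0.125) and EGLN1 (0.0809) missed the threshold.

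HIF1A, the oxygen-regulated subunit of the factor, was at 321 CPM in T320 and 173 CPM in C (edgeR adjusted p = 0.0566). It passed upward with library-size scaling (adjusted p = 0.0286), with limma-voom (0.0403), with DESeq2 (0.00866) and without C (0.0356), but not within C to T80 (0.215).

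Markers of the blood cells that normally carry CD70 could hardly be read. None of 17 lymphocyte markers has a row, and they were not analysed here. Of 10 myeloid markers 1 has a row, the lysosomal protein CD68; it was listed at 0 up to T20, then at 4.16 CPM (T40), 8.24 (T80), 9.31 (T160) and 43.9 (T320), and rose (edgeR adjusted p = 0.00142). CD68 shares 27.7% of its 3' sequence with other genes and is uncertain. In T320 CD68 was at 54.5 CPM in CD70-positive and 40.3 CPM in CD70-negative cells. Of 8 fibroblast markers 4 have a row, and none of the 4 passed the trend test. Their summed level was 25.3 CPM in C and, from T1 to T320, was 423, 996, 2177, 1601, 333, 259, 114, 13.9 and 0 CPM. Their sum in T40 was 167 CPM in CD70-positive and 269 CPM in CD70-negative cells, and its part in the CD70 levels was not tested.

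The genes whose levels over the 10 populations were most like CD70 were ranked by Pearson's r of log2(CPM + 10) among 5519 genes with at least 50 CPM in a population. Over all of them the median r was 0.09, and 120 exceeded 0.9, so a profile of this shape was shared by many genes. The first 8 were OSBPL6 (r = 0.98), TTC39B (0.98), PRPF31 (0.98), NR1H2 (0.97), ZCRB1 (0.97), TAOK3 (0.97), NUP43 (0.97) and CNPY2 (0.96). OSBPL6, an oxysterol-binding protein, was like CD70 listed at 0 up to T5, and from T10 to T320 was at 7.12, 5.88, 29.3, 33.0, 24.4 and 63.0 CPM. NR1H2, which encodes the oxysterol receptor LXR-beta, was at 78.2 CPM in T320 and 17.7 CPM in C.

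These correlations rest on 10 libraries that share a lineage and carry no p. None of the 8 genes was called between CD70-positive and CD70-negative cells; OSBPL6, the one with the highest fold change, gave 0.91 (edgeR adjusted p = 0.333). CD44 was 10th in likeness, at r = 0.95, with 24.3 CPM in C and, from T20 to T320, 66.1, 402, 218, 204 and 403 CPM. Of the 17 genes called between positive and negative cells, 15 reach 50 CPM in a population, and of these CD44 and PAG1, the 44th in likeness at r = 0.93, were the 2 above an r of 0.9.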

How the data were processed

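The labels describe inDrop libraries, 1 for each of 10 populations. The matrix deposited by the authors holds UMI counts per gene and cell without normalization, and the table deposited by the authors holds UMI and gene counts per cell, the mitochondrial fraction and a state for 8240 cells, all matched to the matrix by library and barcode. The submitters' processing notes name hg38, GRCh38 and Seurat 2.3.2; for the aligner, the annotation and the filters, nothing is given in the sources used here. All 18209 cells were kept and no doublet caller was run.

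Counts were summed per library, state or CD70 status and scaled to CPM. Cells were thinned to 1000 UMIs at random without replacement, and positive and negative cells were compared on their unthinned counts with CD70 left out. edgeR 4.0.16 (quasi-likelihood, TMM, at least 100 UMIs, Benjamini-Hochberg over all genes tested, adjusted p under 0.05) gave the tests in R 4.3.3; DESeq2 1.42.0 and limma 3.58.1 were alternatives. Both positive and negative sums of a library come from the same library, which pairs them, so the fit has library as a block. Both fits were run on simulated counts without library-specific levels, with changes set only in genes of at least 1000 UMIs. That check covers neither the library block nor changes in genes with fewer UMIs. Shared 3' sequence is the share of 31-mers of the last 500 transcript bases found in another, non-overlapping gene of GENCODE 29. Over 10% was called uncertain. Intervals are exact at 95% (Poisson, Clopper-Pearson) and cover counting error only.

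Genes were named by rule: 8 by likeness, 8 highest and 8 lowest in T320, up to 8 in each direction by p in the fit, list members past the threshold or with the largest differences, and neighbours within 250 kb; the text mentions a part of them. PLAU, DNMT1, CD274, VIM, SOX17, SIVA1 and HIF1A, and CD44 and PAG1 in likeness, were chosen after their values were seen, as were the G2/M split and the comparison of listed and unlisted cells. CD70, the lists and the tests were chosen with earlier results of these data known.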

Additional observations from a re-analysis of the deposited data

How the results depend on the processing

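Because CD70 is listed at 0 in C, T160 and T320 lie above C under any alternative, so only the size could change. The log2 difference from C was 4.19 in T320 and 2.47 in T160. It became 7.43 and 5.54 with a pseudocount of 1 CPM, and 2.15 and 0.93 with 50 CPM. Without mitochondrial and ribosomal protein genes it was 4.57 and 2.82, and in listed cells 3.55 and 2.21. DESeq2 size factors gave 4.05 and 2.33, and TMM gave 4.03 in T320. The share in T320 and T160 was 11.8% and 2.35% at 700 UMIs, 23.1% and 6.98% at 2000, 24.1% and 9.34% unthinned, 7.65% and 2.57% with at least 2 UMIs, and 9.13% and 2.69% in listed cells. With libraries weighted equally S4 had 34.7 and S5 71.5 CPM. Calls between positive and negative cells, higher and lower, were 4 and 2 with DESeq2's test, 19 and 23 at 500 UMIs or more, 113 and 149 with status unthinned, 2 and 3 on thinned counts, 68 and 104 with T320, and 0 to 22 and 0 to 47 with 1 library left out. Without the library block none passed (318 at an unadjusted p under 0.05). With no filter 19 were lower, and with status at 700 UMIs 16. Of alternatives added after seeing the data, a second draw gave 3 higher, barcodes in no other library 27 and 39, and unlisted cells 0 and 0. All 17 genes kept their direction in these fits where they could be tested, except AURKB at -0.11 in listed cells. UBE2C in T320 was -0.044 there. Those fits re-use cells of the libraries that gave the calls, so the kept direction is no separate support. Trend calls, rose and fell, were 1501 and 1694 with DESeq2, 410 and 517 in C to T80, and 488 to 981 and 537 to 1061 with 1 library left out. Leaving out a library left the unlisted-minus-listed CD70 difference at 0.53 to 0.76 and the G2/M one at 0.46 to 0.72. The causes were not tested. Depth of about 1 CD70 UMI per cell limits what a negative cell means.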
